A study of Homo sapiens with 20 samples.

Results

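The replication-dependent histone genes were taken as all GENCODE genes of the type protein_coding whose symbol starts with H2AC, H2BC, H3C or H4C and a digit, together with H1-1 to H1-6. There were 70 such genes, 6 for H1, 17 for H2A, 19 for H2B, 13 for H3 and 15 for H4, and 62 of them were among the 27697 mRNAs and lncRNAs that were tested. The NGP nutlin dataset holds sequenced poly(A) libraries of NGP, a human neuroblastoma cell line in culture. Of the 20 samples, 10 were treated with nutlin-3, given at 8 µM as a racemic mixture, and 10 with ethanol as vehicle, and no other agent or genotype separates the groups. The treatment time is not given in the sources used here, and all samples come from a single cell line grown in 6-well flasks. Nutlin-3 blocks the ubiquitin ligase MDM2, and the comparison asks which genes differ between nutlin and vehicle.

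Replication-dependent histone genes supply the histones that package newly made DNA, and their mRNAs normally accumulate in S phase. Most of these genes have no introns, lie in clusters and give mRNAs that end at a conserved stem-loop in place of a poly(A) tail, cut by the U7 small nuclear ribonucleoprotein and bound by the stem-loop binding protein SLBP. A poly(A) library therefore holds only the part of these transcripts that carries a tail, or is carried along without one, and the levels below are levels of that part.

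The genes lay in 5 places of GRCh38. A cluster on chromosome 6 between positions 25726063 and 27893891 held 55 of them, and a cluster on chromosome 1 between 149782689 and 149887965 held 11. A pair on chromosome 1 (H2AC25 and H2BC26) lay between 228456979 and 228463104, H4C16 was on chromosome 12 and H2BC12L on chromosome 21. A stem-loop of the histone type was found within 300 bases after the stop codon in 69 of the 70 genes, at 22 to 67 bases after it, and was not found for H2BC12L. The sequences below show the most frequent forms, which set H4 apart from the other families, and the form of H2AC20. The 4 bases of the loop are in capitals.
most frequent form, 40 genes, H1, H2A, H2B and H3: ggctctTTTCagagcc
second form of the same stem, 9 genes, H1, H2A, H2B and H3: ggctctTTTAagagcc
most frequent H4 form, 10 genes, H4 only: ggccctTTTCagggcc
second H4 form, 4 genes, including H4C14 and H4C15: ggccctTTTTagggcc
H2AC20 form, 1 gene: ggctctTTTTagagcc

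All 15 H4 genes carried the stem that opens with ggccct, and 52 genes of the other families carried the stem that opens with ggctct and closes with agagcc. H2BC9 and H2AC14, which were lower in nutlin, and H2BC21, which was higher, all carried the most frequent form. H2AC20, also lower, carried a form found in no other member, and 5 further forms were each found in 1 gene only (H2AC11, H2AC15, H2BC10, H3C6 and H4C13), all called higher. Of all 62 tested members 54 were called higher, so no link between form and direction is drawn.

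Known histone gene motifs were spread unevenly over the families, which is given as a description with no test. Promoters of 300 bases (RefSeq, GRCh38.p14, 250 bases before to 50 after the start) were matched for 64 of the 70 genes. On either strand, CCAAT was present in 84.4% of them and in 35.7% of all 27305 promoters, and TATAAA in 65.6% and 12%. CCAAT was in all matched H1, H2A, H2B and H3 promoters (6, 16, 18 and 11) but in 3 of 13 H4 promoters. The octamer ATTTGCAT, which is bound by POU2F1 (OCT1), was present in 14 of 18 H2B and 11 of 16 H2A promoters and in 1 of 11 H3 promoters, in no H1 or H4 promoter, and in 1.80% of all promoters. The H2A and H2B promoters are not independent. In the 12 head-to-head pairs described below, gaps of 193 to 250 bases can lie within the windows of both genes. A single motif, on either strand, can then count for both, for all 3 motifs.

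MDM2, a target of the pathway that nutlin-3 turns on and the check of the labels, had 199 to 290 CPM (counts scaled to the library total, TMM-adjusted) in vehicle and 4797 to 6005 CPM in nutlin, with a log fold change (LFC, log2 of nutlin over vehicle) of 4.51 ± 0.07 (SE) and an edgeR adjusted p of 5.61e-29. Estimated counts summed to 14455477 to 19532971 per sample. Neuroblastoma markers were abundant in every sample (10 genes, summed CPM 8049 to 9194 in vehicle and 7784 to 9470 in nutlin). Of leukocyte markers, PTPRC had at most 0.394 CPM and CD3E was at 0 in every library. The 5 fibroblast markers summed to 11.9 to 19.1 CPM in vehicle and to 34.4 to 44.7 CPM in nutlin, where COL1A1 alone had 6.97 to 10.9 and 29.5 to 40.8 CPM. Of the other fibroblast markers LUM was lower (LFC -1.71) and COL1A2, COL3A1 and DCN were not called. The 3 epithelial markers summed to at most 3.15 CPM, with EPCAM and CDH1 higher (LFC 1.70 and 0.81), and the 2 endothelial markers to at most 2.35 CPM, with PECAM1 higher (LFC 1.54) and VWF lower (LFC -0.83). Their part in the results was not tested.

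Of the 62 tested histone genes, 54 were significantly differentially expressed (SDE) with a higher level in nutlin and 4 with a lower level (edgeR quasi-likelihood test, 5% FDR), and 4 were not called. Of all tested genes 32.3% were called higher and 26.5% lower, and of mRNAs alone 32.4% and 38.5%. The median LFC was 1.84 over the tested histone genes and 0.19 over all tested genes. In 38 of the 62 every nutlin sample was above every vehicle sample, and in 2 every nutlin sample was below, against 12.2% and 16.6% of all tested genes. Where a level differs in bulk RNA, more cells with the transcript and more transcript per cell cannot be told apart.

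**Figure D1:**
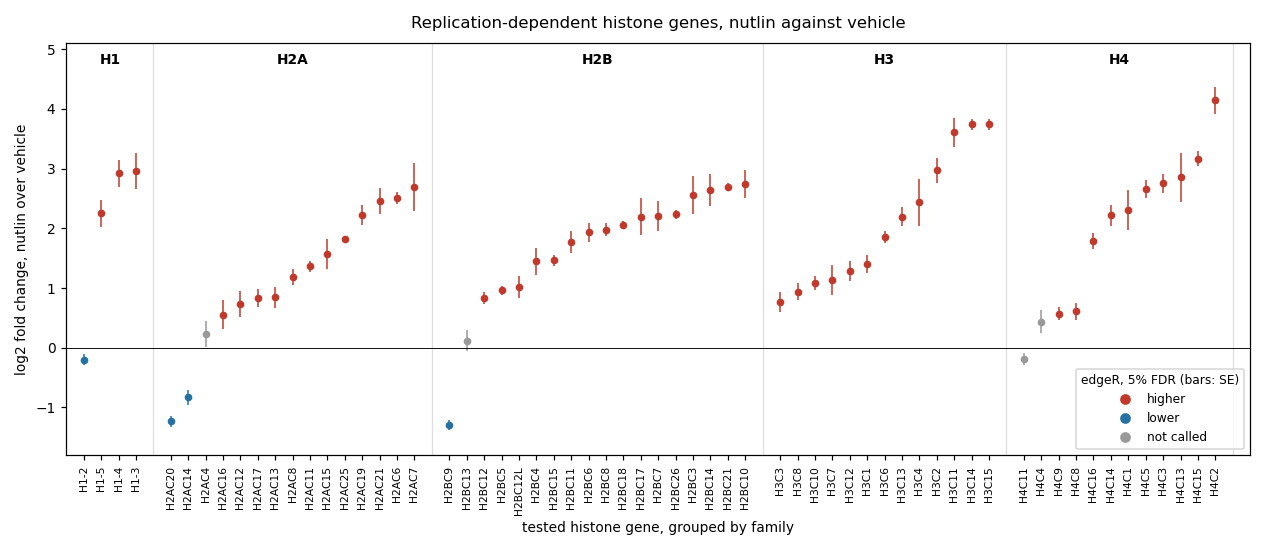
LFC (log2 of nutlin over vehicle, y axis) of the 62 tested histone genes (x axis), grouped by family and sorted by LFC, with bars of 1 SE and colors for the edgeR call at 5% FDR. Most points lie above 0, up to 4.14 for H4C2, and H2AC20, H2BC9, H2AC14 and H1-2 are called lower.

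The 8 genes that did not pass the filter of at least 1 count in each group are part of the same set. H1-1, H2AC1 and H2BC1 had no counts in any of the 20 libraries, which with 3 counts as the limit allows 0.00892 CPM over all libraries. H4C12 had none either, but it is a near-identical copy of H4C11, which holds counts in every library, so no limit is given for it. H1-6 had 10 counts, H4C6 4 and H4C7 4 over the 10 nutlin libraries and none in vehicle. H2AC18 had 442 counts in vehicle and none in nutlin, but it is a near-identical copy of H2AC19, and the counts of both are given together below. The call counts above therefore describe the genes that passed and not all 70.

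Levels per length, as TPM, set the order of the genes within a group. This order rests on the transcript lengths of the index. By vehicle mean, H2BC9, with an index model of 2060 bases against 462 in GENCODE release 44, ranked 9 by TPM and 3 by CPM. H2AC14, modeled by its coding sequence only, ranked 4 by TPM and 10 by CPM. In vehicle the highest mean was that of H2AC20, at 99.4 ± 10.6 TPM (SD, n = 10), followed by H4C11 at 59.9 ± 9.0 and then by H2AC25 at 27.3 ± 1.9 and H2AC14 at 26.7 ± 4.0, which lay within their spread of each other. In nutlin H2AC25 came first at 95.1 ± 7.0 TPM, H2AC19 followed at 82.5 ± 12.4, and H4C11 was at 51.9 ± 5.1. The nutlin samples of H2AC25 (87.5 to 111 TPM) and H2AC19 (59.2 to 92.7 TPM) overlapped. H2AC20, the most abundant gene in vehicle, was at 41.8 ± 5.8 TPM and could not be told from H4C14 at 41.7 ± 7.1. H2AC19, H4C11 and H4C14 each have a near-identical copy, so their places in this order depend on how reads were split. H4C15, the copy of H4C14, was at 30.3 ± 4.9 TPM in nutlin.

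By vehicle TPM the genes called lower and H4C11 ranked between 1 and 9 of the members, namely H2AC20, H4C11, H2AC14, H1-2 and H2BC9 in that order. The genes called lower are given first. H2AC20, an H2A gene at chr1:149886918-149887411 (plus strand), had 17.5, 22 and 27.2 CPM as the lowest, median and highest vehicle sample and 7.21, 9.48 and 11.9 CPM in nutlin. Every nutlin sample was below every vehicle sample, and the LFC was -1.23 ± 0.09 (SE), or 2.35-fold lower (adjusted p = 6.08e-13, edgeR). H2BC9, an H2B gene at chr6:26251614-26252075, had 12.3, 15 and 17.7 CPM in vehicle and 4.83, 5.93 and 8.01 in nutlin. Its groups did not overlap either, with an LFC of -1.29 ± 0.08 and an adjusted p of 1.60e-14. H2AC14, at chr6:27814302-27814777, had 3.97, 6.18 and 7.36 CPM in vehicle and 2.05, 3.32 and 4.33 in nutlin. Its groups overlapped, and its LFC was -0.83 ± 0.13 (adjusted p = 1.45e-06, edgeR). The 31-base words of a gene were taken from its coding sequence to the end of its stem-loop. Only 23.8% of those of H2AC14 occurred in no other gene, so its counts rest in part on how reads were shared.

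H1-2 and H4C11 sat near the line. H1-2, a linker histone gene, had 7.71, 10.5 and 12.3 CPM in vehicle and 8.14, 8.84 and 11.2 in nutlin, and these ranges overlapped widely. It was called lower by edgeR with an LFC of -0.20 ± 0.09 and an adjusted p of 0.0498, but its adjusted p ran from 0.0695 to 0.259 over 8 alternatives, none of which called it. On plain library-size CPM its log2 ratio was -0.0093, so no direction is drawn. H4C11 had 9.11, 12.6 and 17.4 CPM in vehicle and 9.22, 10.7 and 13.6 in nutlin and was not called (LFC -0.19 ± 0.10, edgeR adjusted p = 0.104).

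**Figure D2:**
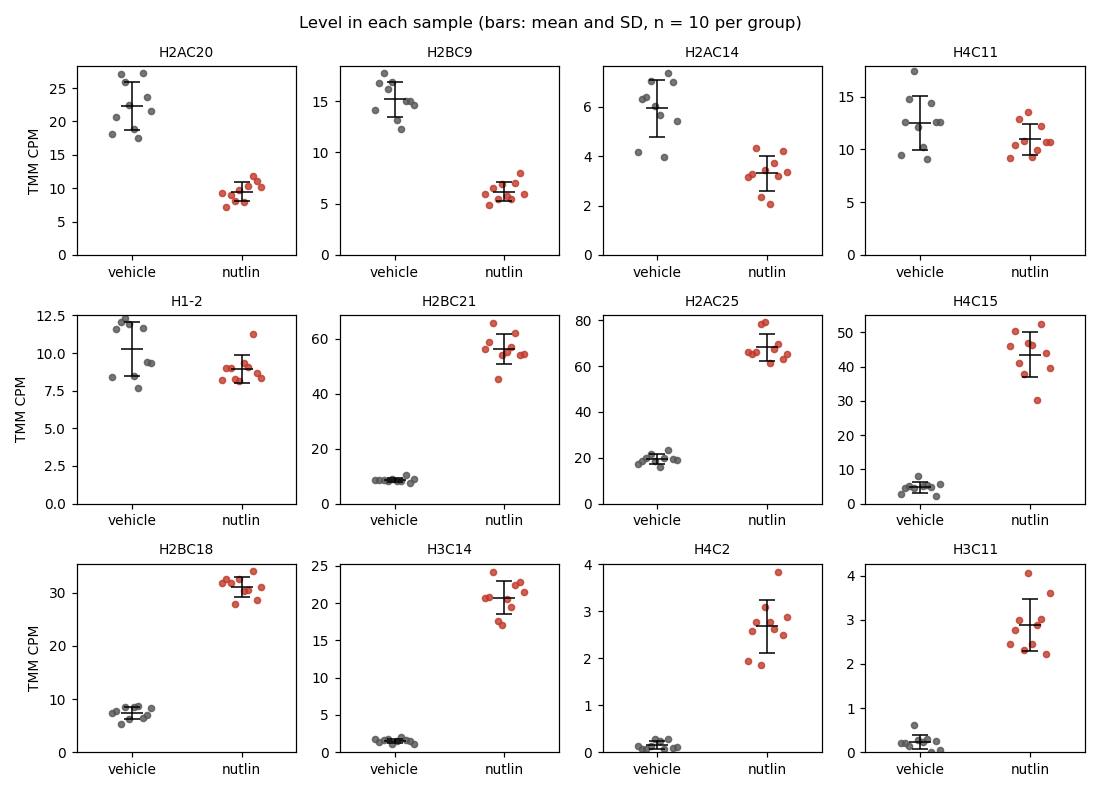
Level of 12 histone genes in each sample (TMM CPM, y axis from 0), vehicle against nutlin, with the mean and SD of 10 samples per group. H2AC20 and H2BC9 fall without overlap, H4C11 and H1-2 overlap, and the genes from H2BC21 to H3C11 rise without overlap.

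Of the other linker histone genes, H1-3, H1-4 and H1-5 were called higher, from low levels, while H1-1 and H1-6 were not tested. H1-4 had 0.120 to 0.551 CPM in vehicle and 1.67 to 3.03 in nutlin, with an LFC of 2.92 ± 0.23 (adjusted p = 1.44e-12, edgeR). H1-5 had 0.120 to 0.857 CPM in vehicle and 1.30 to 2.31 in nutlin (LFC 2.25 ± 0.23). Both sets of samples were separate, as were those of H1-3, and these 3 genes made up the 3 higher calls of the family.

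Among the H2A genes 12 of 15 tested were higher, 2 were lower and H2AC4 was not called. H2AC25, which lies alone with H2BC26 on chromosome 1, had 15.7, 19.3 and 23.3 CPM in vehicle and 61.6, 66.3 and 79.2 in nutlin. No sample of either group came near the other, and the LFC was 1.82 ± 0.06, or 3.53-fold (adjusted p = 1.01e-21, edgeR). H2AC19 had 1.65, 7.57 and 10.9 CPM in vehicle and 22.9, 33.6 and 37.6 in nutlin (LFC 2.22 ± 0.16). From coding sequence to stem-loop, neither H2AC19 nor its copy H2AC18 has a 31-base word of its own. Reads within that stretch therefore cannot be told apart. The index models of these genes, of 564 and 549 bases, reach beyond it, and that part was not searched. With both summed, vehicle samples had 8.01 to 13.3 CPM and nutlin samples 22.9 to 37.6, and the LFC was 1.72 ± 0.09 (adjusted p = 7.04e-17, edgeR).

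Among the H2B genes 16 of 18 tested were higher, H2BC9 was lower and H2BC13 was not called. H2BC21, at chr1:149884459-149886682, had 7.56, 8.68 and 10.5 CPM in vehicle and 45.3, 55.8 and 65.7 in nutlin. Its groups were far apart, with an LFC of 2.70 ± 0.06, or 6.48-fold (adjusted p = 1.62e-25, edgeR). H2BC18 had 5.25, 7.56 and 8.64 CPM in vehicle and 27.9, 31.4 and 34.0 in nutlin (LFC 2.06 ± 0.07). H2BC26 had 2.70, 3.78 and 4.61 CPM in vehicle and 16.2, 17.5 and 22.2 in nutlin (LFC 2.23 ± 0.08). In both genes every nutlin sample exceeded every vehicle sample. H2BC18 overlaps FCGR1A on the other strand and a lncRNA on its own strand, and only 8.80% of its 31-base words occurred in no other gene, against 47.7% for H2BC26.

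All 13 H3 genes were tested and all 13 were called higher, with LFC values from 0.76 for H3C3 to 3.75. H3C14 and H3C15, which lie in the chromosome 1 cluster and have no 31-base word of their own, were given the same counts in every library. Summed, they had 2.13, 3.10 and 3.97 CPM in vehicle and 34.1, 41.5 and 48.2 in nutlin, a 13.3-fold rise (LFC 3.74 ± 0.09, adjusted p = 3.66e-25, edgeR). H3C11 had 0 to 0.612 CPM in vehicle and 2.23 to 4.07 in nutlin (LFC 3.61 ± 0.25). H3C6 had 1.77, 2.01 and 2.70 CPM in vehicle and 6.61, 7.91 and 9.39 in nutlin (LFC 1.85 ± 0.10). The groups were separate in these genes and overlapped in 4 other H3 genes, including H3C3.

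Of the 12 H4 genes tested 10 were higher, and H4C11 and H4C4 were not called. None was lower by edgeR, limma voom or DESeq2, adjusted or at an unadjusted p under 0.05 (0 in each). The largest LFC of any member was that of H4C2, at 4.14 ± 0.23, from 0.058 to 0.284 CPM in vehicle to 1.85 to 3.83 CPM in nutlin (adjusted p = 3.73e-16, edgeR). It rests on 22 counts over the vehicle libraries and 421 over the nutlin libraries. H4C14 and H4C15 are near-identical copies in the chromosome 1 cluster. With both summed, vehicle samples had 8.46, 9.38 and 11.9 CPM and nutlin samples 52.2, 66.4 and 75.1, a 6.84-fold rise (LFC 2.77 ± 0.06, adjusted p = 1.25e-25, edgeR).

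Summed over all 70 genes, vehicle samples had 161, 185 and 219 CPM as the lowest, median and highest, and nutlin samples had 439, 520.1 and 588 CPM. The mean was 2.79-fold higher in nutlin on TMM CPM, 3.19-fold on plain CPM and 1.95-fold on the deposited TPM. No test was made on sums. By family the ratio on TMM CPM was 1.28 for H1, with overlapping groups, 2.19 for H2A, 2.93 for H2B, 3.28 for H4 and 5.31 for H3. On TPM it was 1.22 for H1, 1.47 for H2A, 2.50 for H2B, 2.10 for H4 and 4.20 for H3, so H2B and H4 changed places. The chromosome 6 cluster differed by 1.88-fold and the large chromosome 1 cluster by 3.90-fold, but on TPM these were 1.72-fold and 1.98-fold.

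**Figure D3:**
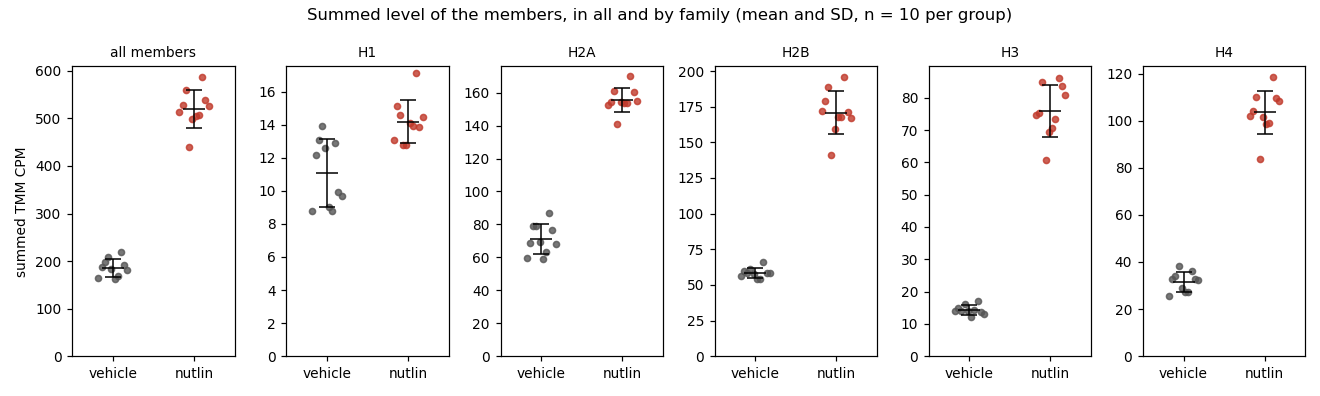
CPM (TMM-scaled, y axis from 0) summed over all 70 histone genes and over each family in each of the 10 vehicle and 10 nutlin samples, with the mean and SD. The groups are separate in the total and in H2A, H2B, H3 and H4, and overlap in H1.

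The make-up of the total also differed. The abundant genes that were not higher, H2AC20, H2BC9, H2AC14, H1-2 and H4C11, were grouped after their values were seen and were not tested as a group. They held 35.4% of the summed CPM in vehicle and 7.48% in nutlin. On TPM these shares were 50.3% and 15.7%.

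How a gene was modeled in the index limits its counts. In 35 genes the deposited length equalled the coding sequence, in 18 it was at most 300 bases longer, and in 17 it was longer by more than that, with a longest model of 2411 bases. A read beyond the coding sequence could be counted only where a model of the gene reached it. Higher calls were made for 24 of 29, 14 of 16 and 16 of 17 tested genes of these classes, with a median LFC of 1.77, 1.61 and 2.06. H2AC20 and H2AC14 were modeled by their coding sequence only, and H2BC9 by 2060 bases, against 462 in GENCODE release 44.

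H2A and H2B genes often lie head to head with a shared gap between their starts. There were 12 such pairs, with gaps of 193 to 250 bases, and both genes were tested in 11. Both were called higher in 8 pairs, and in 2 pairs the calls were opposite, with the H2B gene higher and the H2A gene lower. The gaps of these 2 pairs are shown from the plus strand of GRCh38, with the 3 motifs named above, on either strand, in capitals, since each gap lies between a gene that fell and a gene that rose.
H2BC21 (minus) and H2AC20 (plus), chr1:149886683-149886917: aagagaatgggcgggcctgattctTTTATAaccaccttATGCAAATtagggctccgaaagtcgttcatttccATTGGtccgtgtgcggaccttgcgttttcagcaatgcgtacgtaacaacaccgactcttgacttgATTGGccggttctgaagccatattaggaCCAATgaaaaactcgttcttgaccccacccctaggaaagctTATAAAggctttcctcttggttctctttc
H2AC14 (minus) and H2BC14 (plus), chr6:27814778-27815021: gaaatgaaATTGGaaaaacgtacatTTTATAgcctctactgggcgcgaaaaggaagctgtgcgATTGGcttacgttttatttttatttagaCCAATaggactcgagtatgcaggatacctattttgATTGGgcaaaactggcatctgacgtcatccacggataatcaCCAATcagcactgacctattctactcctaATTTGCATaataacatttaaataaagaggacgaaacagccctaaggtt

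The first gap held a TATAAA toward each gene, 3 CCAAT and 1 octamer, and the second held a TATAAA toward H2AC14 only, 5 CCAAT and 1 octamer. Within a sample the ratio of H2BC21 to H2AC20 counts was 0.311, 0.408 and 0.481 as the lowest, median and highest of vehicle and 4.90, 5.60 and 8.12 in nutlin. This ratio does not depend on scaling between libraries, and the groups were far apart. It does depend on how reads were shared with other genes. From coding sequence to stem-loop, 36.6% of the 31-base words of H2BC21 and 54.7% of those of H2AC20 occurred in no other gene. The index model of H2BC21, of 2194 bases, reaches beyond that stretch, and that part was not searched. H2BC14 rose from 35 counts over the vehicle libraries to 232 over the nutlin libraries (LFC 2.65 ± 0.27, edgeR adjusted p = 5.23e-10). Its ratio to H2AC14 was 0.0104 to 0.0882 in vehicle and 0.248 to 0.770 in nutlin. These 2 pairs were chosen for their difference, which is given with no test.

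**Figure D4:**
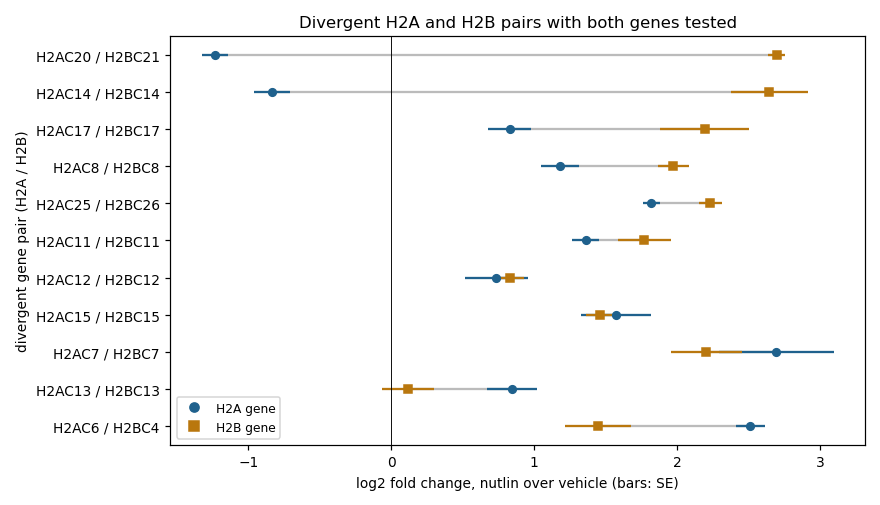
LFC (x axis, log2 of nutlin over vehicle, bars of 1 SE) of the H2A gene (circles) and the H2B gene (squares) in the 11 divergent pairs (y axis) with both genes tested. The pairs H2AC20 with H2BC21 and H2AC14 with H2BC14 lie on opposite sides of 0, at -1.23 and 2.70 and at -0.83 and 2.65.

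More than 1 transcript was annotated for 13 of the genes. Of their 40 transcripts 37 were tested, and 25 were called higher by edgeR at 5% FDR, against 12.2% of all tested transcripts. None was lower by edgeR or limma voom, adjusted or at an unadjusted p under 0.05 (0 in each), against 10.4% of all tested transcripts. Over all 97 transcripts of the 70 genes, 86 were tested, and 65 were higher and 3 lower. Of 25 tested spliced transcripts 15 were higher, and of 12 tested unspliced transcripts of the same genes 10 were higher. Spliced forms, which can end away from the stem-loop, held much of the signal of some genes. H2BC5-201, a form with 2 exons that leaves out the stem-loop, rose with an LFC of 1.27, while the unspliced H2BC5-202 had an LFC of 0.39 and was not called. The H2BC5 and H2BC15 shares of the groups overlapped. The share of H2BC5 counts on the spliced form was 57.4% ± 8.0 (SD, n = 10) in vehicle and 71.4% ± 6.7 in nutlin. For H2BC15 the unspliced form H2BC15-203 held 51.7% ± 10.1 in vehicle and 71.1% ± 3.3 in nutlin. On TPM the H2BC5-201 shares were 42.2% and 57.5%, so the direction held on both scales. In H2BC18 the shares did not overlap, with 96.4% to 100% on the unspliced H2BC18-201 in vehicle and 88.0% to 94.0% in nutlin. The spliced H2BC18-204 held 0% to 2.30% in vehicle and 2.95% to 7.70% in nutlin and had an LFC of 5.57. H4C8 went the other way, since its unspliced form H4C8-201 held 0% to 1.39% in vehicle and 13.0% to 36.9% in nutlin. H2BC18 and H4C8 were named after their values were seen.

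For H4C15 a spliced form that keeps the stem-loop, H4C15-202, held 74.0% ± 33.8 of the counts in vehicle and 95.1% ± 3.6 in nutlin, and the vehicle spread covers the difference. The shares of H4C14 and H4C15 depend on how reads were split between the copies. H2AC6 was held mainly by its unspliced form H2AC6-202, at 67.8% ± 40.2 in vehicle and 68.7% ± 22.4 in nutlin, a difference far below the spread.

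The genes listed for histone transcription and for the processing and decay of histone RNA mostly moved the other way. Of 30 listed genes, all tested, 22 were lower, 6 were higher and 2 were not called, with a median LFC of -0.54. Of all tested mRNAs 38.5% were lower and 32.4% higher. The higher genes included TUT4, TUT7 and XRN1, which were listed for decay. SLBP, which binds the stem-loop, had 75.4, 82.5 and 98.2 CPM in vehicle and 24.4, 26.4 and 28.8 in nutlin. Its groups did not overlap, and it was 3.20-fold lower (LFC -1.68 ± 0.05, edgeR adjusted p = 3.75e-23). CASP8AP2 (FLASH), which recruits the cleavage complex, had an LFC of -1.54 ± 0.04, and ERI1, an exonuclease that trims histone mRNA ends, -1.17 ± 0.06. NPAT, the coactivator of histone transcription, had 13.6, 19.9 and 22.4 CPM in vehicle and 12.2, 13.4 and 15.7 in nutlin, with overlap and an LFC of -0.52 ± 0.07. The U7-specific proteins LSM10 and LSM11 had LFC values of -0.56 ± 0.06 and -0.82 ± 0.06, and ZNF473, a U7 partner, -0.23 ± 0.03. ZNF473 alone of these lost its call in an alternative, with an LFC of -0.04 and an adjusted p of 0.594 when effective length was an offset (edgeR). Of the higher genes TUT4, a uridylyltransferase that acts on histone mRNA, had separate groups (LFC 0.48 ± 0.03).

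Replication-independent variants, most of whose mRNAs carry a poly(A) tail, were mostly lower. Of 17 listed genes 14 were tested, and 11 were lower and 2 were not called. H2AZ1 had 488, 580.3 and 693 CPM in vehicle and 120.3, 134.9 and 152 in nutlin, which did not overlap (LFC -2.09 ± 0.05, edgeR adjusted p = 3.06e-24). H2AX, which marks DNA breaks when phosphorylated and is known to give both a stem-loop-ended and a polyadenylated mRNA, had an LFC of -1.68 ± 0.06. H3-3A and H3-3B, which both encode H3.3, had LFC values of -0.83 ± 0.04 and -0.37 ± 0.04. H2AB1, one of the lower calls, had at most 0.688 CPM in any sample.

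Chaperones and S-phase genes were lower almost throughout. Of 23 chaperone genes 21 were lower, ATRX was higher and CABIN1 was not called. ASF1B, which hands H3-H4 to the assembly machinery, had 40.1 to 49.7 CPM in vehicle and 4.50 to 6.70 in nutlin (LFC -3.02 ± 0.07). CHAF1A and CHAF1B, subunits of chromatin assembly factor 1, had LFC values of -2.39 ± 0.05 and -2.48 ± 0.06, and NASP, which holds soluble H3-H4, -1.94 ± 0.04. All 24 S-phase genes were lower, with a median LFC of -2.74. PCNA, the sliding clamp, had an LFC of -0.94 ± 0.05, MCM2, a helicase subunit, -2.51 ± 0.05, CDC6, a licensing factor, -2.89 ± 0.06, and CCNE2, cyclin E2, -1.54 ± 0.11. Histone genes rose in the same 10 libraries in which these genes fell, and no value here separates the poly(A) part of histone RNA from its total.

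**Figure D5:**
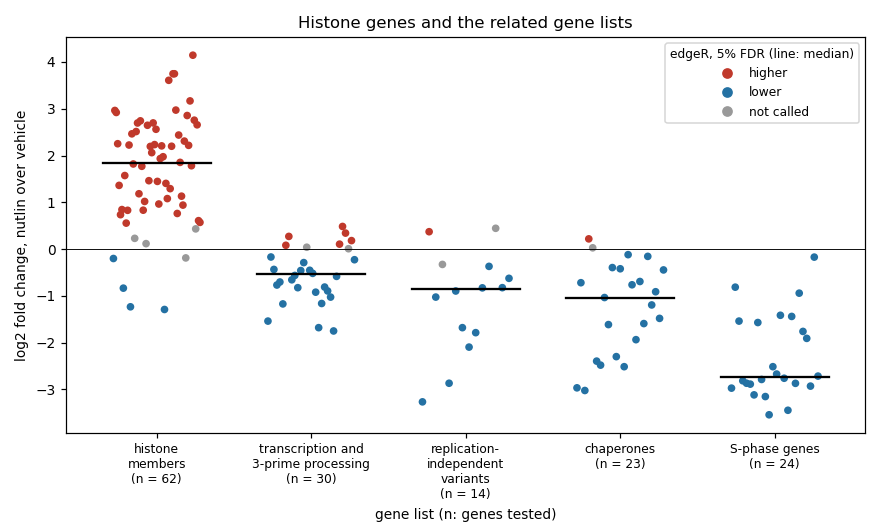
LFC (log2 of nutlin over vehicle, y axis) of each tested gene of the histone set and of 4 related lists (x axis), with the median as a line and colors for the edgeR call at 5% FDR. The medians are 1.84 for the histone genes and -0.54, -0.86, -1.03 and -2.74 for the lists.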

How the data were processed

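NGP cells treated with nutlin-3 or vehicle, 10 samples each and described by the study as biological replicates, were profiled with stranded poly(A) libraries. The authors quantified reads with kallisto v0.42.4 on GRCh38 transcripts of Ensembl and deposited, per transcript, estimated counts (no normalization), TPM values (scaled by effective length and library size) and effective lengths in bases. Whether the authors' quantification used strand is not given in the sources used here.

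Transcripts were assigned to genes with GENCODE release 44, a later release than that of the index. Of 198968 transcripts 191106 matched, and the other 7862 were not used. Each gene's estimated counts were added up and rounded, and genes with at least 1 count in each group were tested with edgeR 4.0.16 (R 4.3.3; TMM, quasi-likelihood test, Benjamini-Hochberg over all tested genes, 5% FDR). CPM are TMM-scaled. Deposited TPM were used only to order genes and as an alternative. DESeq2 1.42.0, limma 3.58.1, other filters, scalings and thresholds were alternatives. The edgeR fit was tested on simulated data. It found all changed genes with higher counts, but missed many of the smaller changes at low counts, so that genes with few counts that were not called, such as H2AC4, are not shown to be unchanged. The pass mark was set on genes with higher counts after this was seen. Depth was 14455477 to 19532971 estimated counts per sample, so levels near 0 rest on few counts. Limits for zeros cover counting error only. Groups came from the sample titles.

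The members and lists were chosen with earlier results of these data known. Genes named in the text are the 3 most abundant of each family, the 5 largest rises and falls among called members with a mean of at least 1 CPM, members that failed the filter, and preset genes of the lists. Others were chosen after their values were seen, and some listed genes are not reported here. Stem-loops, 31-base words and gaps were read from GRCh38.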

Additional observations from a re-analysis of the deposited data

Results flagged for a closer look

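Of 92 groups of 10 samples examined for a sample far from the rest, 5 were flagged, where chance gives about 4.6. The highest nutlin sample of H1-2 (replicate 9) had 11.2 CPM, with the next at 9.32 CPM. The highest vehicle sample of H2BC21 (replicate 10) had 10.5 CPM, with the next at 9.02, and the highest vehicle sample of H3C11 (replicate 6) had 0.612 CPM, with the next at 0.292. The highest nutlin sample of H2BC26 (replicate 3) had 22.2 CPM, with the next at 19.2, and that of H3-3A (replicate 6) had 745 CPM, with the next at 667.

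Histone pseudogenes were outside the tested genes. Of 13, every nutlin sample was above every vehicle sample in 2, against 12.2% of all tested genes. With so few pseudogenes and a share of that size, no result about them as a group is drawn. H2BC20P had a mean of 7.66 CPM in vehicle and 16.9 CPM in nutlin, and H2AC5P had 0.0314 CPM in vehicle and 0.777 CPM in nutlin.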

How the results depend on the processing

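Over 10 alternatives 50 to 61 histone genes were called, against 58, with 47 to 57 higher and 3 or 4 lower. Of 39 named genes under 8 alternatives each, 303 of 312 values kept their direction and their side of the threshold, 9 lost the call (8 of them H1-2, and ZNF473 with the effective-length offset) and none reversed. The higher calls among the chaperones went from 1 to 2 with filterByExpr, and the ratio of the summed level from 2.79 to 3.19 on plain CPM and to 1.95 on TPM. The cause was not tested. The median LFC of all tested genes was 0.19, and 0.03 with filterByExpr and 0.30 without a filter, which test other genes.

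Replicate numbers did not pair the samples. None of the 8 shared numbers had a correlation above 0.1 (-0.060 to 0.083), and 1 of 8 samples correlated best with its own number. With the replicate block over those 16 samples, 57 histone genes and 14317 of all genes were called, and without the block, a fit chosen after seeing the data, 56 and 15114. Poly(A) selection, near-identical copies and index models that stop at the coding sequence limit the levels.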
